A study of Vitis vinifera with 2 samples.

Results

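The 23 nt clusters of grapevine (Vitis vinifera cv. 'Chardonnay') are the places in the genome where mapped small interfering RNAs (siRNAs) formed a cluster whose predominant fragment length, the DicerCall, was 23 nt. They were chosen by this DicerCall alone, which numbered 5622 of 89597 clusters in young leaf tissue and 10110 of 227847 in embryogenic callus (EC), or 15732 of 317444 in all. The leaf tissue was harvested from vines, and EC is a proliferating culture of dedifferentiated cells, started here from anthers of the same vines and kept on solid medium in the dark. There was 1 small RNA library per tissue, made from pooled leaves or pooled culture dishes. Tissue, growth medium and light therefore cannot be told apart, no difference between leaf and EC had a replicate check, and no test between them was made. Intervals given in brackets are 95% intervals, exact binomial unless stated otherwise, and cover the counting of clusters only. The deposited lists gave the position, strand and DicerCall of each cluster without its reads, so the number of reads behind a cluster was unknown and every cluster counted once whatever its coverage. The study's read summary lists more genome-mapped small RNA reads for EC than for leaf, and the part of this in the differences between the lists was not tested. They held no gene expression, and the tissue labels were not checked against marker genes.

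In plants, small RNAs of different length come from different Dicer-like enzymes. In Arabidopsis thaliana, DCL3 cuts the double-stranded RNA made by RNA polymerase IV and RDR2 into 24 nt siRNAs, which guide DNA methylation at transposable elements (TEs), and DCL3 products of 23 nt also arise, as partners of 24 nt strands. DCL4 and DCL2 give the 21 nt and 22 nt siRNAs known for the silencing of transcripts. No class of siRNA with a function of its own is generally assigned to 23 nt, so the 24 nt clusters and the shorter classes were the natural yardsticks. Cluster sequences are not shown because only coordinates of the PN40024 12X assembly were analysed here.

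Clusters of 23 nt made up 6.27% (6.12 to 6.44%) of the leaf list and 4.44% (4.35 to 4.52%) of the EC list. After 24 nt and 21 nt they were the third most frequent class with a size call in leaf, and in EC they were second to 24 nt clusters. The number in EC was 1.80 times (1.74 to 1.86) that in leaf, with an interval computed from EC's part of the summed 23 nt clusters. For all clusters this ratio was 2.54 and for 24 nt clusters 3.28. For every 100 clusters of 24 nt there were thus 10.5 (10.2 to 10.8) of 23 nt in leaf and 5.76 (5.64 to 5.87) in EC. Most clusters of this class were short, and they occupied 320 kb in leaf and 652 kb in EC. That was 3.96% of all sequence covered by clusters in leaf and 2.58% in EC.

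The shortness of 23 nt clusters set them apart from 24 nt clusters in both tissues. Their median length was 41 bp (quartiles 25 and 80 bp) in leaf and 55 bp (quartiles 31 and 90.8 bp) in EC, against 71 bp and 95 bp for 24 nt clusters. Clusters of at most 30 bp, which are hardly wider than a single siRNA, accounted for 36.9% (35.6 to 38.2%) of the 23 nt class in leaf and 24.8% (23.9 to 25.6%) in EC. The corresponding shares of the 24 nt class were 24.5% and 14.2%. At the other end, 14.6% of leaf and 19.04% of EC 23 nt clusters reached 100 bp, compared with 35.9% and 47.5% of 24 nt clusters. Only 49 leaf and 98 EC clusters of 23 nt exceeded 200 bp. In length they resembled the 22 nt class (median 47 bp in leaf and 58 bp in EC) and the 20 nt class (47 and 54 bp) more than the 24 nt class.

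The most common width of a 23 nt cluster was 24 bp rather than 23 bp. A cluster exactly as wide as its call holds no read that reaches beyond a single 23 nt position. In leaf, 391 clusters of 23 nt were 23 bp wide and 733 were 24 bp wide, a ratio of 1.87. In EC the same widths were found in 95 and 914 clusters, a ratio of 9.62. The narrowest form was therefore the only one of the length ranges examined in which 23 nt clusters were fewer in EC, at 0.243 times (0.192 to 0.305) the leaf number. Clusters of 25 bp were already less frequent, with 285 in leaf and 380 in EC, and 40 bp was the width of 47 and 104 clusters. The peak at 24 bp was shared by other classes of EC. Clusters of 20, 21 and 22 nt in EC were also most often 24 bp wide, with 183, 302 and 229 of that width against 15, 92 and 26 as wide as their call. In leaf this held for 20 nt clusters but not for those of 21 nt (331 of 24 bp and 478 of 21 bp) or 22 nt (152 of 24 bp and 163 of 22 bp).

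**Figure D1:**
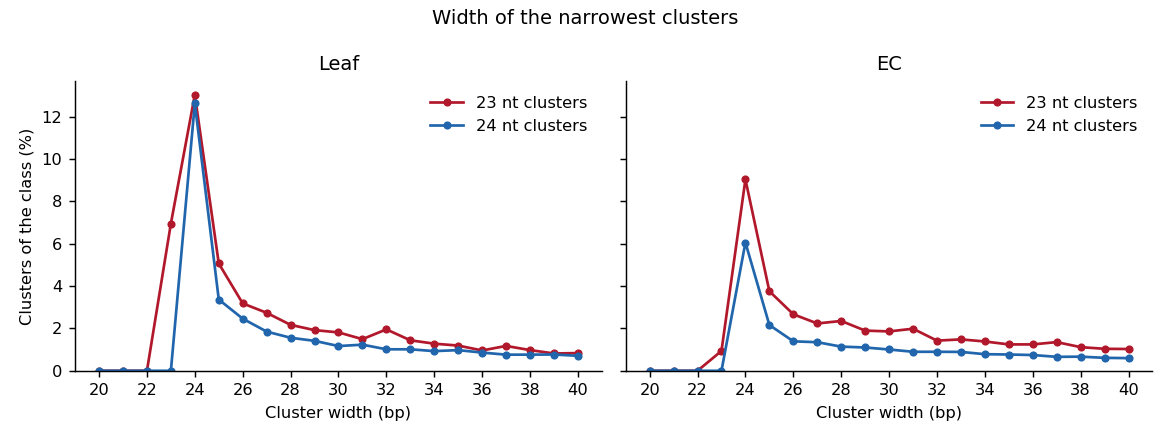
Share of 23 nt (red) and 24 nt (blue) clusters of each class (y axis, %) that had a given width in bp (x axis), for widths of 20 to 40 bp in leaf (left) and EC (right). Both classes peak at 24 bp in both tissues, and the 23 nt class has a shoulder at 23 bp of 6.95% in leaf and 0.940% in EC.

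Since the classes differed in length, their frequencies were also compared within ranges of length. The number of 23 nt clusters per 100 clusters of 24 nt was highest at 25 to 30 bp, with 15.0 (14.0 to 16.1) in leaf and 10.4 (9.89 to 11.01) in EC. It fell with length to 5.27 (4.89 to 5.67) and 3.10 (2.95 to 3.25) at 101 to 200 bp, and to 0.998 (0.737 to 1.32) and 0.379 (0.307 to 0.462) above 200 bp. Leaf was above EC in each of the 6 ranges from 24 bp upwards. Relative to leaf, the number per 100 in EC was 0.794 times as high at a width of 24 bp, 0.696 times at 25 to 30 bp, 0.684 times at 31 to 60 bp, 0.643 times at 61 to 100 bp and 0.588 times at 101 to 200 bp. Over all lengths it was 0.549 times as high. The lower proportion of 23 nt clusters in EC thus held within each length range, and was more pronounced among longer clusters.

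Strand followed length in the same manner as in the 24 nt class. ShortStack assigns a strand where the part of a cluster's reads that come from it passes a cutoff, and leaves the cluster without one otherwise. The cutoff was not given in the sources used here, so a cluster without a strand need not be evenly split. In leaf, 1904 clusters of 23 nt lay on the plus strand, 1735 on the minus strand and 1983 (35.3%, 34.0 to 36.5%) had no strand. In EC these numbers were 3016, 2893 and 4201 (41.6%, 40.6 to 42.5%). The plus strand held 52.3% (50.7 to 54.0%) of stranded clusters in leaf and 51.04% (49.8 to 52.3%) in EC. The interval excluded 50% in leaf but not in EC. Of stranded 24 nt clusters, 51.9% (51.3 to 52.4%) lay on the plus strand in leaf and 52.1% (51.8 to 52.5%) in EC.

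Among 23 nt clusters the share without a strand rose from 5.32% at a width of 24 bp to 24.8% at 25 to 30 bp, 44.6% at 31 to 60 bp and 54.2% at 101 to 200 bp in leaf. In EC it rose from 7.33% to 28.3%, 42.5% and 56.9% over the same ranges. Unassigned clusters were more frequent overall in the 24 nt class, at 46.1% in leaf and 55.2% in EC. Much of this gap went with length. When 24 nt clusters were weighted to the lengths of the 23 nt clusters, which leaves the 23 bp wide clusters out, 39.5% of them in leaf and 44.7% in EC had no strand, against 37.9% (36.6 to 39.2%) and 41.9% (40.98 to 42.9%) of 23 nt clusters. The order of the classes turned with length. At a width of 24 bp an absent strand was more frequent in 23 nt clusters than in 24 nt clusters (5.32% against 1.86% in leaf, 7.33% against 3.24% in EC), and at 61 to 200 bp it was less frequent (48.05% against 54.3% in leaf and 49.3% against 55.8% in EC at 61 to 100 bp). In these comparisons the intervals of both classes did not overlap.

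**Figure D2:**
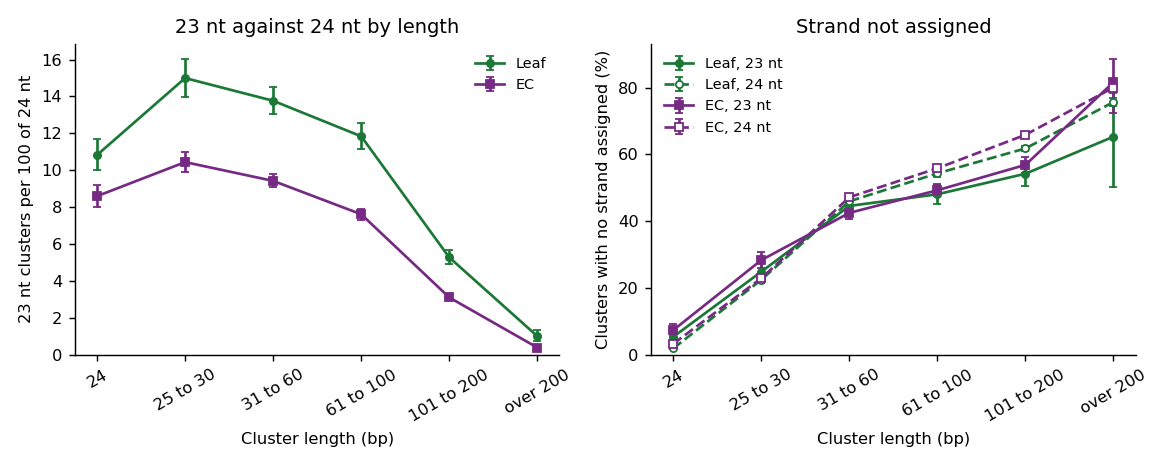
Left, number of 23 nt clusters per 100 clusters of 24 nt (y axis) by range of cluster length in bp (x axis) in leaf (green circles) and EC (purple squares). Right, share of clusters with no strand assigned (y axis, %) for 23 nt (filled, solid lines) and 24 nt clusters (open, dashed lines). Bars are 95% exact binomial intervals. Leaf lies above EC in all ranges of the left panel, and in the right panel all lines rise from under 8% at 24 bp.

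The 3 longest 23 nt clusters of each tissue exceeded 95% of its 24 nt clusters, of which 95% were at most 249 bp long in leaf and 302 bp in EC, but stayed far below the longest 24 nt clusters (2623 and 2984 bp). In leaf, the longest spanned 577 bp on the plus strand of chromosome 7 (2333805 to 2334381). An EC cluster of 319 bp without a size call (2334032 to 2334350), also on the plus strand, covered 55.3% of it. Next in length was a cluster on chromosome 16, minus strand, with 432 bp (20654720 to 20655151), which was covered to 76.6% by a 24 nt cluster of EC on the same strand (20654821 to 20655296). The third, of 373 bp on the plus strand of chromosome 18 (11763246 to 11763618), met no cluster in EC. These 3 were stranded, unlike most leaf 23 nt clusters above 200 bp, of which 32 of 49 had no strand. The 3 longest of EC had no strand, as was the case for 80 of 98 EC clusters of 23 nt above 200 bp. The first was found on chromosome 14, from 1709476 to 1710016, with a length of 541 bp. The unplaced sequence chrUn carried the next, 353 bp long (33199417 to 33199769), and chromosome 9 the third, 334 bp long (21808222 to 21808555). Leaf had no cluster at the first 2 of these. The third was touched over 23 bp by a leaf cluster of 30 bp without a size call. Coordinates are those of PN40024 12X as deposited, and gene and TE annotations of that build were not used here.

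Along the chromosomes, 23 nt clusters followed the 24 nt clusters of their own tissue. Of the class, 90.8% in leaf and 89.04% in EC lay on chromosomes 1 to 19. Each chromosome was divided into 5 equal parts from start to end, for which the numbers of leaf 23 nt clusters were 1109, 1084, 839, 908 and 1162. Those of EC were 1306, 1736, 2130, 2088 and 1742. Leaf 23 nt clusters were thus fewest in the middle part and EC clusters most numerous there. Divided by the leaf numbers, EC stood at 1.18 (1.09 to 1.28) in the first part, 1.60 in the next, 2.54 (2.34 to 2.75) in the middle, 2.30 in the fourth and 1.50 (1.39 to 1.62) in the last.

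The distribution over these parts was nearly that of 24 nt clusters. To give the 23 nt class the same distribution over the 5 parts as the 24 nt class, 1.49% of its clusters would have to change part in leaf and likewise 1.49% in EC. For the 22 nt class as the yardstick the value was 3.20% in leaf and 2.93% in EC, and for the 21 nt class 6.04% and 6.30%. For clusters without a size call it was 2.88% and 4.30%. Counting noise raises this value for a class with few clusters, such as 22 nt, and the values were not corrected for class size. The number of 23 nt clusters per 100 of 24 nt varied over the parts only from 10.1 to 10.98 in leaf and from 5.54 to 6.03 in EC. Clusters of 21 nt ranged from 9.41 to 14.2 per 100 of 24 nt in leaf. A small departure was visible in EC, where 4.70% (4.51 to 4.90%) of all clusters in the middle part were called 23 nt, against 4.25% (4.03 to 4.49%) in the first part and 4.29% (4.09 to 4.49%) in the last.

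**Figure D3:**
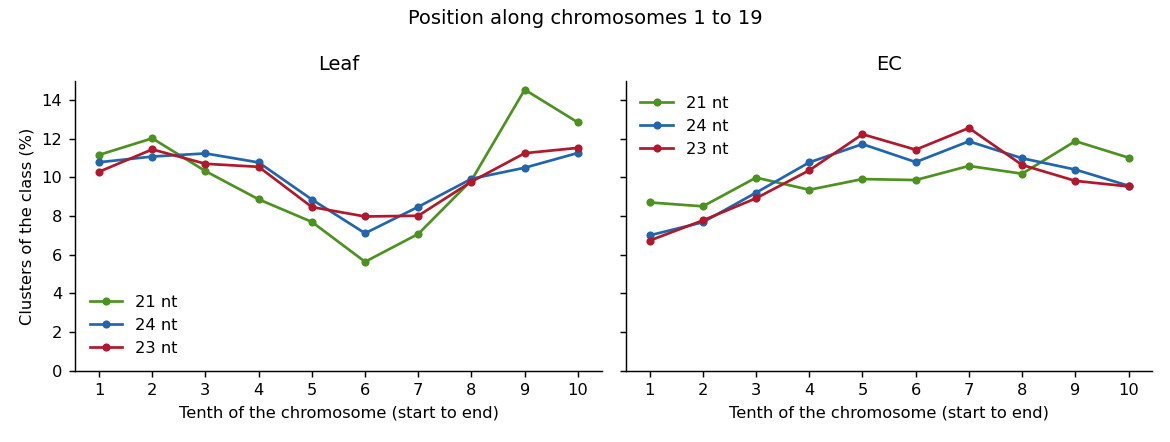
Share of the clusters of a class (y axis, %) in each of 10 equal parts of chromosomes 1 to 19, pooled from start to end (x axis), for 21 nt (green), 23 nt (red) and 24 nt clusters (blue) in leaf (left) and EC (right). The 23 nt line stays close to the 24 nt line, with a dip to 7.98% in the sixth part in leaf and a rise to 12.6% in the seventh part in EC.

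The same likeness was seen in windows of 1 Mb. Over 474 complete windows the median number of 23 nt clusters was 11.5 in leaf (range 0 to 27) and 20 in EC (range 5 to 49). Numbers of 23 nt and 24 nt clusters per window were correlated with r = 0.70 and rho = 0.69 in leaf and with r = 0.81 and rho = 0.83 in EC. Without the 2 windows whose number of 24 nt clusters lay farthest from the median, r was 0.69 and 0.81. With clusters of 21 nt, r was 0.27 in leaf and 0.30 in EC, and with clusters of 22 nt 0.29 and 0.50. The classes without a size call came closer, at 0.63 and 0.67. Windows are neighbours on a chromosome, all classes of a tissue come from 1 library, and a class with few clusters has noisier counts, so these values serve as a description and carry no p-value.

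A subset of 24 nt clusters of similar number, picked by width, gave a reference for such a correlation, though not an upper limit. The 24 nt clusters exactly 24 bp wide, 6771 in leaf and 10637 in EC, correlated with the wider 24 nt clusters at r = 0.62 in leaf and r = 0.79 in EC. The 23 nt clusters correlated with the same wider clusters at r = 0.69 and r = 0.81. At this resolution the 23 nt class therefore resembled the bulk of the 24 nt class about as much as the narrowest 24 nt clusters did.

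Between tissues there was no such likeness. The numbers of 23 nt clusters per window in leaf and in EC had r = -0.01 and rho = -0.02. Leaf 23 nt and EC 24 nt clusters had r = 0.04, and EC 23 nt and leaf 24 nt clusters r = -0.08. EC had more 23 nt clusters than leaf in 376 windows, fewer in 85 and as many in 13, whereas 24 nt clusters were more numerous in EC in all 474.

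The windows richest in 23 nt clusters differed between the tissues. In leaf they were chromosome 13 at 6 to 7 Mb with 27 clusters, chromosome 14 at 22 to 23 Mb with 26 and chromosome 8 at 10 to 11 Mb with 26. These windows held 27, 21 and 27 clusters of 23 nt in EC. The richest in EC were chromosome 11 at 13 to 14 Mb with 49, the unplaced part of chromosome 13 (13_random) at 2 to 3 Mb with 47 and chromosome 5 at 11 to 12 Mb with 47. In leaf they held 5, 13 and 8. The same 3 windows held 619, 561 and 530 clusters of 24 nt in EC, above the median of 342.5. Windows picked for a high number in one tissue tend to be lower in the other, so these values show no difference by themselves.

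By chromosome the 23 nt class was evenly represented. Its share of all clusters ranged from 5.60% (4.88 to 6.40%) on chromosome 17 to 6.93% (6.29 to 7.62%) on chromosome 14 in leaf, and the interval included the share of the whole list on 18 of 19 chromosomes, chromosome 14 being the exception. In EC it ranged from 4.004% (3.62 to 4.41%) on chromosome 2 to 5.09% (4.63 to 5.59%) on chromosome 6. Here the interval included the share of the whole list on 16 chromosomes, and chromosomes 2, 6 and 15 were the exceptions. The share was higher in leaf than in EC on each of the 19 chromosomes. All chromosomes of a tissue come from the same library, so they are not separate checks of a difference between leaf and EC. The intervals cover the counting of clusters only and were not used to test that difference.

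**Figure D4:**
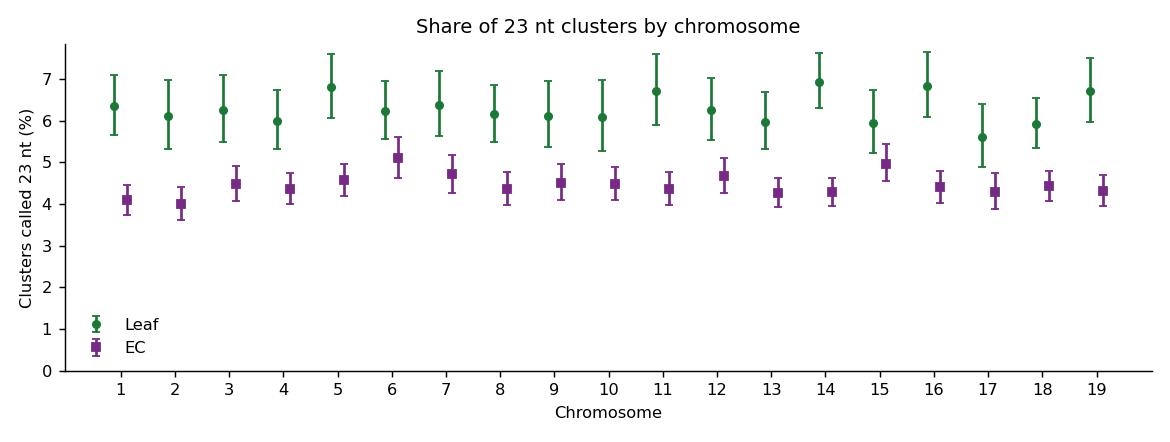
Share of all clusters that were called 23 nt (y axis, %) on chromosomes 1 to 19 (x axis) in leaf (green circles) and EC (purple squares), with 95% exact binomial intervals. Leaf lies above EC on every chromosome, between 5.60 and 6.93% against 4.004 to 5.09%.

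In number, 23 nt clusters were more frequent in EC on each of the 19 chromosomes. The EC/leaf ratio ran from 1.38 (1.19 to 1.60) on chromosome 6, with 301 clusters in leaf and 415 in EC, to 2.59 (2.19 to 3.08) on chromosome 10, with 190 and 493. These chromosomes also had the lowest and the highest ratio of 24 nt clusters, at 2.05 and 4.43. On every chromosome the ratio for 23 nt clusters was below that for 24 nt clusters. Density varied from 9.82 clusters per Mb on chromosome 9 to 14.0 on chromosome 6 in leaf, and from 18.04 on chromosome 9 to 27.2 on chromosome 10 in EC.

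The local surroundings of 23 nt clusters were also dominated by 24 nt clusters. In leaf the nearest cluster of the same tissue was of 24 nt for 63.5% (62.2 to 64.7%) of 23 nt clusters. This lay between the 60.5% found over all leaf clusters and the 66.2% found for 24 nt clusters, and well above the 33.1% found for 21 nt clusters. In EC it was 77.2% (76.4 to 78.0%), close to the 77.7% over all clusters and below the 79.5% for 24 nt clusters. A 24 nt cluster lay within 500 bp of 27.9% (26.7 to 29.1%) of 23 nt clusters in leaf, against 12.1% for 21 nt, 16.6% for 22 nt and 33.7% for other 24 nt clusters. In EC this share was 53.4% (52.4 to 54.4%), against 40.8%, 48.4% and 59.3%. In both tissues 23 nt clusters were thus nearer to 24 nt clusters than the shorter classes were, without being as near as 24 nt clusters were to each other.

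Clusters of 23 nt were hardly grouped among themselves. The nearest cluster was another 23 nt cluster for 6.76% (6.12 to 7.45%) in leaf and 4.47% (4.08 to 4.89%) in EC. Over clusters of any class these values were 6.12% and 4.41%. In contrast, the nearest cluster of a leaf 21 nt cluster was of 21 nt in 35.4% of cases, against 6.86% over all leaf clusters.

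The next question was whether 23 nt clusters recurred in the other tissue, and in which size class. An EC cluster overlapped 2033 of the 5622 leaf clusters of 23 nt by at least 1 bp, or 36.2% (34.9 to 37.4%). This was below the 41.1% of leaf clusters of any class that were overlapped and below the 46.0% of leaf 24 nt clusters, and it was above the 29.5% of leaf 22 nt and 25.3% of leaf 21 nt clusters. In the other direction, a leaf cluster overlapped 956 of the 10110 EC clusters of 23 nt, or 9.46% (8.89 to 10.04%), while 16.1% of EC clusters of any class were overlapped. For EC clusters of 24 nt the share was 16.6% and for those of 21 nt 20.9%, and the 20 nt and 22 nt classes were at 10.4% each. The EC list is the longer one, and its clusters covered 5.19% of the assembly span against 1.66% for leaf, so the share seen from leaf is not comparable with that seen from EC.

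Averaged over matched lengths, fewer 23 nt than 24 nt clusters were overlapped. Weighted to the lengths of 23 nt clusters of 24 bp or more, 42.04% of leaf and 13.6% of EC 24 nt clusters were overlapped, compared with 37.1% (35.8 to 38.4%) and 9.45% (8.88 to 10.04%) of these 23 nt clusters. The share of leaf 23 nt clusters overlapped rose from 24.04% (19.9 to 28.6%) at a width of 23 bp to 33.7% (30.3 to 37.2%) at 24 bp and 40.5% (36.9 to 44.2%) at 101 to 200 bp. At a width of 24 bp, leaf 24 nt clusters were overlapped in 32.7% (31.5 to 33.8%) of cases, which did not differ from the 23 nt clusters beyond counting error. At 101 to 200 bp the 24 nt clusters stood at 51.7% (50.9 to 52.5%). In EC, 7.77% (6.12 to 9.70%) of 23 nt clusters of 24 bp and 10.97% (9.54 to 12.5%) of those of 101 to 200 bp were overlapped, against 10.5% (9.94 to 11.1%) and 17.8% (17.5 to 18.2%) of 24 nt clusters. Without matching for length, 36.2% of plus, 36.4% of minus and 36.0% of unassigned leaf 23 nt clusters were overlapped. Their median lengths were 32, 29 and 63 bp, so these shares do not show whether strand assignment made a difference at a given length. In the leaf 24 nt class the shares were 43.7%, 44.1% and 48.5%.

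Recurrence varied along the chromosomes for 23 nt and 24 nt clusters of EC alike. In EC, 15.3% (13.4 to 17.4%) of 23 nt clusters in the first part of the chromosomes were overlapped by a leaf cluster and 6.62% (5.60 to 7.76%) in the middle part. The 24 nt clusters of EC showed the same course, with 23.6% and 12.6%. In leaf the values for 23 nt clusters were 32.6% (29.9 to 35.5%) in the first and 37.3% (34.02 to 40.7%) in the middle part, with overlapping intervals. The highest was 39.4% in the fourth part. Leaf 24 nt clusters stood at 43.9% in the first and 47.8% in the middle part. Shares over clusters of any class were not computed by part. The number of clusters in the other tissue also differed between parts, and its bearing on these shares was not tested.

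Where 23 nt clusters met a cluster of the other tissue, this was a 24 nt cluster in most cases. Of the 2033 overlapped leaf clusters, 1701 had a 24 nt partner in EC, or 83.7% (82.0 to 85.3%). The share over all overlapped leaf clusters was 79.7%, and for leaf 24 nt clusters it was 86.5%. Another 218 (10.7%, 9.41 to 12.1%) had a partner without a size call, against 13.9% over all overlapped leaf clusters. Partners of 23 nt numbered 65 (3.20%, 2.48 to 4.06%), those of 22 nt 22, those of 21 nt 15 and those of 20 nt 12.

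Seen from EC, 658 of the 956 overlapped 23 nt clusters had a 24 nt partner in leaf, or 68.8% (65.8 to 71.8%), against 67.5% over all overlapped EC clusters and 73.2% for EC 24 nt clusters. A partner without a size call was found for 193 (20.2%, 17.7 to 22.9%), against 20.9% over all. Partners of 23 nt numbered 66 (6.90%, 5.38 to 8.70%), of 21 nt 18, of 22 nt 17 and of 20 nt 4. The partner makeup of EC 23 nt clusters therefore differed little from that of EC clusters in general.

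A partner of the same class was only slightly more frequent than for other clusters. Over all overlapped clusters a 23 nt partner was found for 2.47% in leaf and 5.36% in EC, so that 23 nt clusters exceeded these shares by factors of 1.30 (1.004 to 1.65) and 1.29 (1.003 to 1.62). These intervals barely exclude 1. Clusters of 24 nt met a 23 nt partner in 2.50% of cases in leaf and 5.62% in EC, and both values lay within the intervals of the 23 nt class. Seen from leaf, 21 nt clusters met 21 nt clusters with a factor of 11.99 (11.1 to 13.0), and seen from EC the factor was 11.9 (11.2 to 12.7). For 22 nt clusters it was 4.61 (2.83 to 7.04) and 4.80 (3.003 to 7.21), and for 20 nt clusters 3.87 (1.56 to 7.87) and 3.804 (1.54 to 7.72). The 24 nt class had factors of 1.08 in both directions. Its factor is limited from above, since 79.7% of the clusters met from leaf and 67.5% of those met from EC were of 24 nt. It is therefore not comparable with the factors of the other classes. Among the classes below 24 nt, the 23 nt call thus had the lowest factor, and its intervals lay below those of the 21 nt and 22 nt classes. They overlapped those of the 20 nt class, which rest on 7 clusters in each direction.

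**Figure D5:**
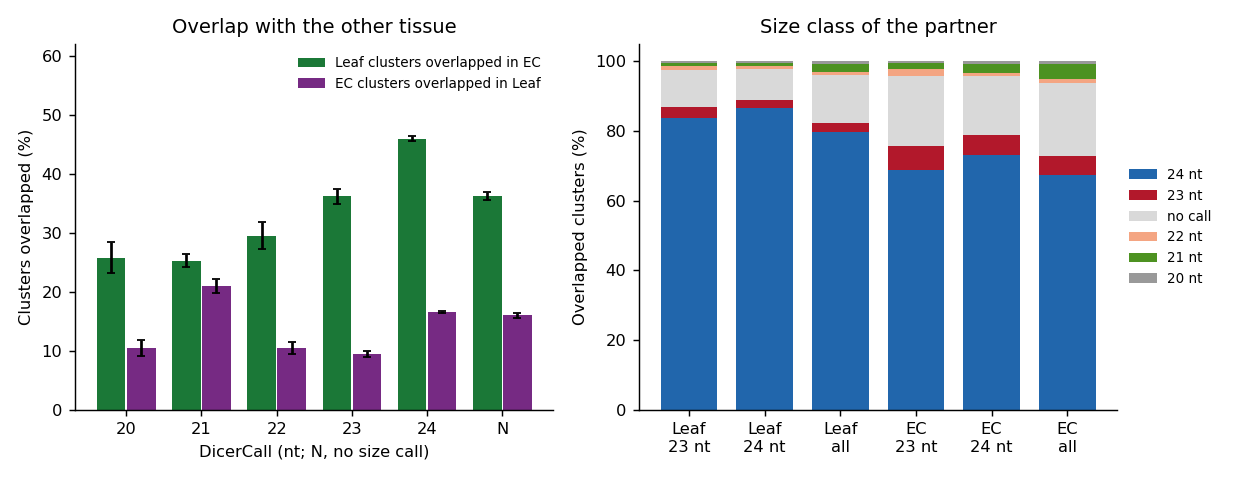
Left, share of clusters of each DicerCall (x axis) overlapped by at least 1 bp by a cluster of the other tissue (y axis, %), for leaf clusters (green) and EC clusters (purple), with 95% exact binomial intervals. Right, size class of the partner with longest overlap (y axis, % of overlapped clusters) for 23 nt, 24 nt and all clusters of leaf and EC. For 23 nt clusters the share overlapped is 36.2% in leaf and 9.46% in EC, and the 24 nt class makes up 83.7% and 68.8% of partners.

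By median length, 23 nt clusters were smaller than the 24 nt clusters they met. This comparison was not made for the other classes. The 1701 leaf clusters with a 24 nt partner had a median length of 47 bp and their EC partners one of 115 bp, and 53.3% (50.9 to 55.7%) of them lay wholly inside the partner. From EC, the 658 clusters with a leaf 24 nt partner had a median of 60 bp against 91 bp, and 37.7% (34.0 to 41.5%) lay inside. Where both clusters of such a pair had a strand, the strand was the same in 442 of 503 pairs (87.9%, 84.7 to 90.6%) for leaf and in 164 of 200 (82.0%, 76.0 to 87.1%) for EC 23 nt clusters. With partners without a size call it was the same in 65 of 75 pairs (86.7%) for leaf and 60 of 70 (85.7%) for EC 23 nt clusters. Agreement in strand was thus not particular to 24 nt partners. Identical coordinates were found in 22 of the pairs of leaf 23 nt with EC 24 nt clusters and in 6 of the pairs of EC 23 nt with leaf 24 nt clusters. In 16 pairs a leaf 23 nt cluster of 24 bp met an EC 24 nt cluster of 24 bp. Of the 13 with the same strand, 11 had both ends in common. Pairs of 24 nt clusters of 24 bp in both tissues behaved alike. There were 184 of these, 175 had the same strand, and 154 of the 175 had both ends in common.

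Loci called 23 nt in both tissues were few. There were 66 pairs, which involved 1.17% of leaf and 0.653% of EC 23 nt clusters. Among clusters of any class, 907 of 89597 in leaf and 1968 of 227847 in EC had a 23 nt partner in the other tissue. The low number was therefore not particular to the 23 nt class. Of the 66 pairs, 61 lay on chromosomes 1 to 19, where 16 chromosomes had at least 1 and chromosome 7 had most, with 8. The median overlap was 25 bp, the width of about a single siRNA, and 18 pairs shared a start or an end. Both clusters were stranded in 40 pairs, and in 38 of these (95%) the strand was the same. The longest overlap, of 112 bp, was on the plus strand of chromosome 18, where the leaf cluster spanned 1332233 to 1332449 and the EC cluster 1332338 to 1332449, with the same end. The next, of 108 bp, was on chromosome 7 (leaf 2737237 to 2737344, EC 2737237 to 2737361), with the same start and no strand in either tissue.

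Chromosome 15 had the third and 1 of the following pairs. At 19074152 the clusters of both tissues started at the same base and overlapped by 100 bp, with the plus strand in leaf and none in EC. At 19102800 they also started together, on the minus strand, and overlapped by 91 bp. The remaining 2 of comparable length were on chromosome 5, where 94 bp were shared (leaf 22655376 to 22655485, EC 22655392 to 22655500), and on chromosome 6, where a leaf cluster of 162 bp (18033011 to 18033172) held the EC cluster of 91 bp (18033015 to 18033105) on the minus strand. Only 2 pairs had identical coordinates in both tissues. Both were on the minus strand. That of chromosome 8 measured 29 bp (7929634 to 7929662), and that of chromosome 17 measured 23 bp (6423043 to 6423065).

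A single 23 nt cluster carried ShortStack's mark for a miRNA locus, even though reads of known miRNAs were filtered out upstream of the alignment. It was a leaf cluster of 107 bp on the minus strand of chromosome 17 (5681206 to 5681312). Within it lay an EC cluster of 40 bp (5681210 to 5681249) on the same strand, which was also called 23 nt but was not marked. No EC cluster of 23 nt had the mark. It was rare over all classes, on 22 of 89597 leaf and 15 of 227847 EC clusters. The numbers among 23 nt clusters were thus too small to set the class or the tissues apart. Whether the locus is a known miRNA gene was not tested.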

How the data were processed

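RNA fragments of 18 to 35 nt were sequenced from 50 mg of each tissue. The authors trimmed and size filtered reads in the UEA small RNA Workbench, removed tRNA and rRNA reads with PatMaN and then miRNA reads, and mapped the remainder to PN40024 12X with ShortStack, which places multi-mapping reads by the unique reads nearby and joins mapped reads into clusters. For minimum coverage and padding, values were not given in the sources used here. In the deposited lists the start and end of each cluster, in bp, were the only numeric values beside the DicerCall, since the score field held no number. Within a tissue, clusters lay at least 64 bp apart.

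Shares have exact binomial (Clopper-Pearson) intervals. Assembly spans were the largest cluster end per sequence. A cluster with several partners was paired by longest overlap. For length weighting, 24 nt clusters were weighted to the 23 nt lengths in steps of 1 bp up to 60 bp, of 10 bp up to 200 bp, and 1 class above. Named regions were the 3 longest clusters and 3 richest windows per tissue, the 5 longest overlaps between 23 nt clusters (6, as 2 were tied in length), the extreme chromosomes and clusters marked as miRNA loci; the 2 pairs of identical coordinates were added after their values were seen. The class, these rules and the yardsticks were chosen with earlier results of these data known. The overlap method was checked on intervals planted at real EC cluster coordinates and against a direct pairwise count for a sample of leaf clusters. Base composition was planned but not analysed, as no genome of this build was used. Python 3.11.15, numpy 2.4.6, pandas 2.3.3 and scipy 1.17.1 were used.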

Additional observations from a re-analysis of the deposited data

How the results depend on the processing

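Of 58 alternative values for 25 results, 30 lay within the interval of the main value and 28 outside it, and no difference between classes or tissues changed direction. These intervals were exact binomial for shares and ratios, based on ranks for medians, and approximate for correlations and for placement. Those of correlations took windows as independent, and those of differences between classes held the counting error of the 23 nt class only. The split is therefore a rough guide. The near-zero correlation of 23 nt clusters between leaf and EC changed sign, from r = -0.01 to 0.03 with windows of 500 kb. Restriction to chromosomes 1 to 19 moved no value out of its interval. Among clusters longer than 30 bp the EC/leaf ratio was 2.14, and among those of at least 100 bp 2.35, against 1.80. The first of these restrictions also gave median lengths of 69 bp in leaf and 72 bp in EC, shares without a strand of 48.1% and 48.8%, a ratio of 3.26 in the middle part, overlapped shares of 34.8% in leaf and 7.81% in EC, 0.910% of EC clusters placed unlike 24 nt clusters, and r = 0.60 with 24 nt clusters in leaf. Among clusters of at least 100 bp, an alternative chosen after seeing the data, 54.8% and 57.6% had no strand. Weighting by length brought the difference in unassigned strand between 24 nt and 23 nt clusters from 10.8 to 1.62 points in leaf and from 13.7 to 2.79 in EC, and that in overlap from 9.82 to 4.97 and from 7.11 to 4.14. With overlap of at least 50% of the shorter cluster, 31.8% of leaf and 8.04% of EC clusters were overlapped, and with partners within 100 bp 44.9% and 13.4%. Windows of 500 kb gave r = 0.59 in leaf and 0.74 in EC between 23 nt and 24 nt clusters, and thinning the 24 nt clusters to the number of 23 nt clusters gave 0.56 and 0.70. With 10 parts, 2.25% of leaf clusters were placed unlike 24 nt clusters. Among neighbours within 500 bp, 67.3% in leaf and 78.3% in EC were of 24 nt. Sequence composition was not run. The reads behind each cluster were unknown, so an absent partner was not shown to be an absent siRNA.

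No paired analysis was possible because leaf and EC are represented by 1 library each.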
